A study of Mus musculus with 6 samples.

Results

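The genes followed here belong to natural killer (NK) cell recognition and were measured in cultured mouse T cells. They are the killer lectin-like receptors Klrd1, Klrk1, Klrc1, Klrc2, Klrg1 and Klrb1c, the immunoglobulin-type receptor Ncr1, and the signalling adaptors Hcst, Tyrobp and Fcer1g. Their rows were matched by gene symbol, and all 10 were found among the 45808 rows of the count table. T cells had been purified from spleens of C57BL/6 background mice aged 2 months and activated in culture with antibodies to CD3 and CD28 and with IL-2, a T cell growth factor. There were 3 libraries of wild type cells (WT) and 3 of cells labelled Drp1-/- (KO). Drp1 is the GTPase that divides mitochondria. All 6 libraries share the background, age, tissue and stimulation, and the labels do not say in which cells Drp1 was deleted or with which driver. Nor do they state the animal or culture behind each replicate, so the p-values speak only of the spread among these libraries, which may be technical.

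NK cell receptors let a lymphocyte weigh signs of health and stress on other cells. CD94, encoded by Klrd1, pairs with an NKG2 chain: NKG2A, from Klrc1, carries inhibitory motifs, while NKG2C, from Klrc2, activates through an adaptor, and both pairs read the non-classical MHC molecule Qa-1. NKG2D, from Klrk1, reads stress-induced ligands and signals through the adaptors DAP10, from Hcst, and DAP12, from Tyrobp. In activated CD8 T cells several of these receptors are known to appear after T cell receptor stimulation, so their transcripts are not restricted to NK cells.

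Klrd1, Klrk1, Klrc2, Klrc1 and Klrb1c lie in the NK gene complex of chromosome 6 (mm10). Klrd1 (129591782 to 129598775, plus strand) lies 11.55 kb from Klrk1 (129610323 to 129623864, minus strand). Klrc2 (129647496 to 129660689) and Klrc1 (129666015 to 129678973), both on the minus strand, lie 5325 bases apart. Klrb1c (128778485 to 128789215) sits in the same complex, and Klrg1 (122270596 to 122282882) lies outside it on the same chromosome. Tyrobp (chromosome 7, 30413760 to 30417585) and Hcst (30417712 to 30419854) face each other tail to tail, 126 bases apart. Ncr1 is on chromosome 7 (4337724 to 4345164) and Fcer1g on chromosome 1 (171229572 to 171234365). All 10 are protein-coding genes, and counts here are over whole genes.

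The promoter windows are shown so that receptor and adaptor genes can be compared by their letters. RefSeq (GRCm38.p6) gave a start for 7 of the 10 genes: Klrk1, Klrc1, Klrc2, Klrb1c, Ncr1, Hcst and Fcer1g. The 250 bases before each start were searched on both strands for TGTGGT, the core recognised by Runx factors, which also reads ACCACA, and for AGGTGT, a core of T-box factors such as Eomes. The cores can overlap by sharing the letters TGT. In the windows of the 3 genes printed whole, capitals mark the Runx core.
Klrk1, chr6:129623865-129624114, minus strand: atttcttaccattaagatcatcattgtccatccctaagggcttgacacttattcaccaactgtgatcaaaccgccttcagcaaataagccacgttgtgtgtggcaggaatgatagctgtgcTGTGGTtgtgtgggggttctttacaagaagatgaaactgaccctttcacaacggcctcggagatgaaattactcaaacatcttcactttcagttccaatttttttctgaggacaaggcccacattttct
Klrc1, chr6:129678974-129679223, minus strand: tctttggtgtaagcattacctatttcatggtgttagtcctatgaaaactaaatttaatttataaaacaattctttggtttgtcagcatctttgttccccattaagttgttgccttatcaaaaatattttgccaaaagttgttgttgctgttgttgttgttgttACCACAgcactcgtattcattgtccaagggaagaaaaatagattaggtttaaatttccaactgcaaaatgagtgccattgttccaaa
Hcst, chr7:30419855-30420104, minus strand: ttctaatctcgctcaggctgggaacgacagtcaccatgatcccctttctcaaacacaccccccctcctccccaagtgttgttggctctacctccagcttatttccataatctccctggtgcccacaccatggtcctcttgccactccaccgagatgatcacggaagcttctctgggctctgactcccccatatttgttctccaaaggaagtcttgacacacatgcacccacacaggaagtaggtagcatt

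The Runx core was found in the windows of all 5 receptor genes that had one, once in Klrk1, Klrc1 and Klrb1c and at 2 places in Klrc2 and in Ncr1. It was not found in the windows of the adaptor genes Hcst and Fcer1g. Of 27025 promoter windows of the same length, 14.2% held it. The T-box core was found in 0 of the 7 windows and in 12.0% of all windows. A match is a description of letters, not a bound site, and no match says only that these letters are not in the window. The stretches around the other matches, whose flanks were not compared, are given as read on the gene's strand, with the core in capitals. Those of Klrc2 and Klrb1c lie inside the GENCODE gene model, upstream of the RefSeq start.
Klrc2, chr6:129660617-129660642, minus strand: caatagaatcACCACAgcatagaaca
Klrc2, chr6:129660597-129660615, minus strand: aagtagaattACCACAgag
Klrb1c, chr6:128788715-128788740, minus strand: gaaggaaagcTGTGGTcatggtgttt
Ncr1, chr7:4337529-4337554, plus strand: agatccaaaaTGTGGTtaaatgtgtt
Ncr1, chr7:4337664-4337689, plus strand: ggcctcacccACCACAtcctgtgcat

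Total counts per library ran from 24738017 to 34730475, so 3 counts, taken as the floor of detection, came to 0.0840 to 0.128 CPM (the usual scaling of a count to library size, here with TMM factors). WT replicate 1 stood apart, with a chi-square per gene of 12.2 and 13.6 against the other WT libraries, which differed by 2.56. The log2 differences of Klrc1, Klrc2, Klrc3, Klrb1c, Ncr1 and Fcer1g are also given without it. The targeted gene Dnm1l stood at 119 ± 3.76 CPM in WT and 95.4 ± 4.57 CPM in KO (SD, n = 3 each), a log2 difference of KO minus WT of -0.32 ± 0.05 (SE), so most of its RNA was still counted in the libraries labelled Drp1-/-. Counts over a whole gene do not show which exons were deleted. Xist, the RNA of the inactive X chromosome, had 0 to 3 counts in each WT library and 12950 to 16862 in each KO library. The Y-linked gene Ddx3y had 3159 to 3604 counts in each WT library and 2163 to 2679 in each KO library, so KO libraries held RNA of both genes. The labels used here give no sex, and whatever goes with Xist cannot be told apart from the genotype in any comparison here. In bulk RNA, fewer cells of a type and less RNA per cell cannot be told apart either. T cell markers were high in every library, with the 12 listed genes summing to 3923 to 4113 CPM in WT and 3364 to 3460 CPM in KO. B cell markers were present as well, at 476 to 484 CPM in WT and 415 to 434 CPM in KO.

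The genes did not move as a block. Klrk1, Klrc2, Klrb1c, Ncr1 and the adaptor gene Fcer1g were higher, by 1.22-fold to 3.30-fold. Klrd1, Klrc1, Hcst and Tyrobp did not pass, and Klrg1 was below the expression filter. Together the 10 genes held 0.0226% to 0.0238% of all counts in WT and 0.0267% to 0.0296% in KO. In the edgeR quasi-likelihood test, adjusted over all genes by Benjamini-Hochberg, 5 of 9 tested genes were called higher and 0 lower at an adjusted p under 0.05, where 52.9% of the 14209 tested genes were called, 26.7% higher and 26.1% lower. Ncr1 entered the test through its KO counts alone, and 4 of the other 8 were called higher. Of all calls 50.6% were higher, and this share was 62.0% with library totals alone as the scaling. The median log2 difference of the 9 genes was 0.29, against 0.01 over all tested genes. With a filter of 1 CPM in 3 libraries, which leaves out Ncr1, it was 0.23, again against 0.01.

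**Figure D1:**
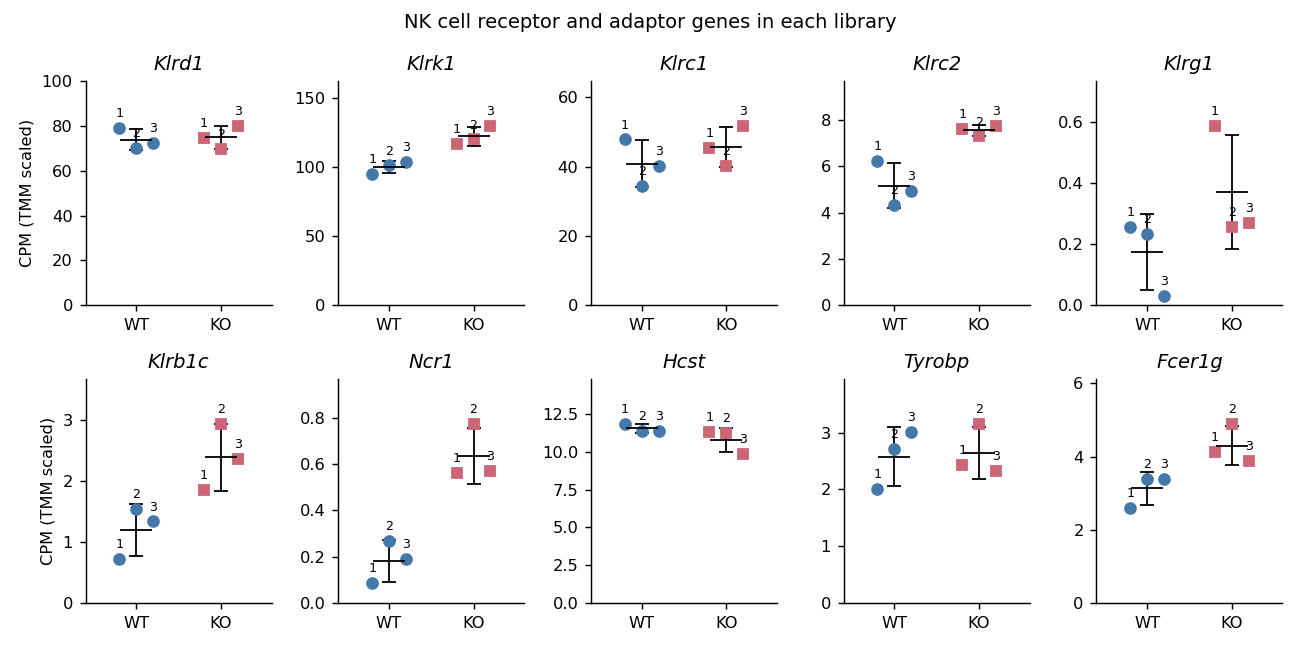
CPM (y axis, from 0, a separate scale for each gene) of the 10 genes, split by genotype (x axis). Each point is a library with its replicate number; bars give mean and SD, n = 3. Klrk1, Klrc2, Klrb1c, Ncr1, Fcer1g and, narrowly, Klrg1 have every KO library above every WT library, as 32.5% of all tested genes do, and Klrd1 averages 74.0 CPM in WT and 75.0 CPM in KO.

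Klrk1, encoding NKG2D, had more counts than any other of the genes in every library. It stood at 94.96, 101 and 104 CPM in WT replicates 1, 2 and 3 and at 117, 119.9 and 129.6 CPM in KO replicates 1, 2 and 3. The groups did not overlap, and every KO library was above every WT library. The means were 99.9 ± 4.43 and 122 ± 6.71 CPM (SD, n = 3 each), a log2 difference of 0.29 ± 0.06 (SE) with an edgeR adjusted p of 0.00190. The 95% interval of the fold change was 1.119 to 1.33. None of its 50-base transcript stretches occurs in another gene, so its counts are not shared with a paralog at that length.

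Klrd1, encoding the CD94 chain that the NKG2A and NKG2C receptors need, did not follow Klrk1. It stood at 79.2, 70.3 and 72.4 CPM in WT and at 74.8, 70.0 and 80.2 CPM in KO. The groups overlapped throughout, with the lowest and the highest library both in KO. The log2 difference was 0.02 ± 0.07 (edgeR adjusted p = 0.807), and the 95% interval of the fold change, 0.917 to 1.123, leaves room for a fall or rise of that size.

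The inhibitory chain gene Klrc1 and the activating chain gene Klrc2 differed in level and in change. Klrc1 stood at 47.8, 34.3 and 40.2 CPM in WT and at 45.3, 40.1 and 51.8 CPM in KO. Its groups overlapped: WT replicate 1 was higher than 2 of the KO libraries, and WT replicate 3 was level with KO replicate 2. The log2 difference of Klrc1 was 0.17 ± 0.12 (edgeR adjusted p = 0.251), with a 95% interval of the fold change from 0.938 to 1.35, and without WT replicate 1 it was 0.29 and passed (adjusted p = 0.00522). Klrc2 stood at 6.22, 4.33 and 4.95 CPM in WT and at 7.62, 7.29 and 7.74 CPM in KO. Every KO library was above every WT library, and the KO libraries lay close together. The means of Klrc2 were 5.17 ± 0.963 and 7.55 ± 0.235 CPM (SD, n = 3 each), a log2 difference of 0.56 ± 0.13 (edgeR adjusted p = 0.00446). Without WT replicate 1 this difference was 0.70.

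Klrc1, Klrc2 and Klrc3 are close paralogs, and their counts are uncertain for that reason. Of the 50-base stretches in Klrc1 transcripts, 38.6% also occur in Klrc2 or Klrc3, and of those in Klrc2 transcripts 16.3% also occur in the other two genes. How such reads were counted is not given in the sources used here. Counted together, the 3 genes stood at 54.3, 39.3 and 45.6 CPM in WT and at 53.9, 48.2 and 60.3 CPM in KO, with a log2 difference of 0.23 ± 0.11 that did not pass (edgeR adjusted p = 0.115). WT replicate 1 was again the highest WT library. Klrc3 alone, another activating NKG2 gene, had a log2 difference of 0.81 ± 0.29 (edgeR adjusted p = 0.0372) at 0.457 CPM in WT and 0.825 CPM in KO, and it passed the expression filter only through its KO counts. DESeq2 did not call it (adjusted p = 0.103). The edgeR call of Klrc3 was also lost without WT replicate 1 (log2 0.57, adjusted p = 0.105) and without WT replicate 3 or any 1 of the KO replicates (adjusted p = 0.0593 to 0.106).

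Ratios of counts within a library do not depend on the scaling between libraries, and they set the receptor chains against each other directly. For every Klrc2 count there were 7.69, 7.93 and 8.11 Klrc1 counts in WT and 5.95, 5.50 and 6.68 in KO. All KO libraries were below all WT libraries, with fewer inhibitory chain counts for each activating chain count. For every Klrd1 count there were 1.1997, 1.44 and 1.43 Klrk1 counts in WT and 1.56, 1.71 and 1.62 in KO, again without overlap. The ratio of Klrd1 to Klrc1 overlapped between groups, at 1.84 ± 0.198 in WT and 1.65 ± 0.0982 in KO (SD, n = 3 each). With 3 libraries a group an exact permutation test, 2-sided, cannot go below p = 0.10, which both of the ratios without overlap reached (0.145 after Benjamini-Hochberg adjustment over 16 ratios).

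**Figure D2:**
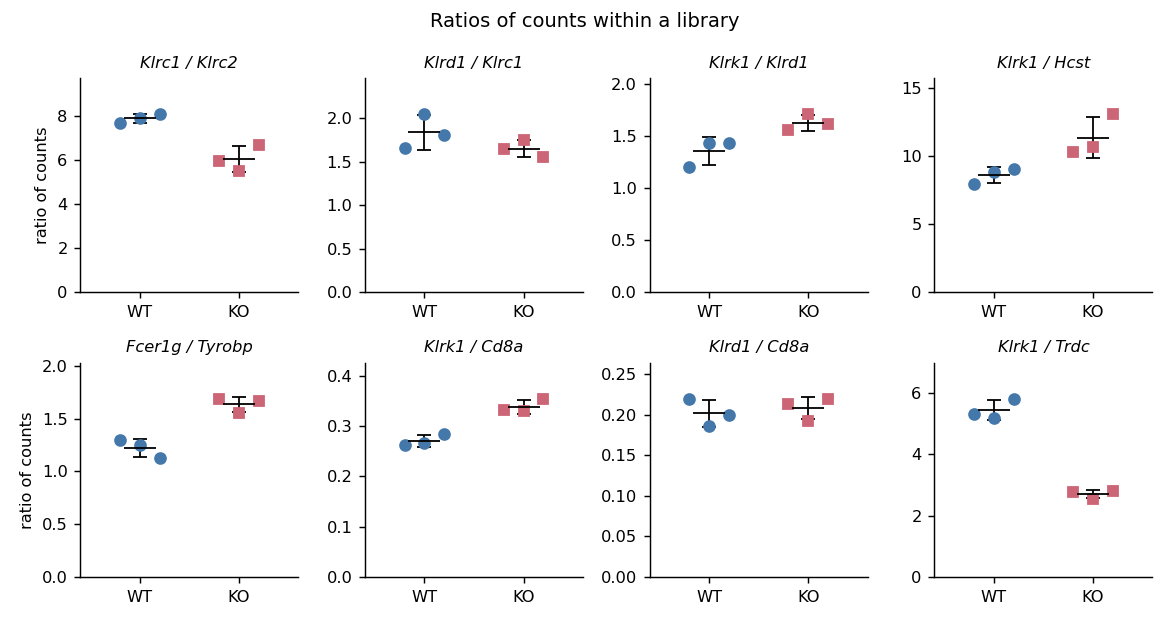
Ratio of the counts of 2 genes within a library (y axis, from 0, a separate scale for each ratio) by genotype (x axis). Each point is 1 of 3 libraries of a genotype, in replicate order; bars give mean and SD. Klrk1 counts per Klrd1 count average 1.36 in WT and 1.63 in KO, and Klrd1 counts per Cd8a count overlap between the groups.

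The receptors outside the CD94 and NKG2 group had the larger fold changes at much lower counts. Klrb1c encodes the antigen NK1.1, by which NK cells of C57BL/6 mice are recognised, and it stood at 0.724, 1.54 and 1.33 CPM in WT and at 1.85, 2.94 and 2.36 CPM in KO. WT replicate 1 was the lowest library, and the groups did not overlap. The log2 difference was 0.94 ± 0.26 (edgeR adjusted p = 0.0107), and 0.71 without WT replicate 1. Of its 50-base stretches 17.0% occur in other genes, among them Klrb1a, Klrb1b and the overlapping readthrough model Gm44511.

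Ncr1 encodes NKp46, a receptor that marks NK cells and some innate lymphoid cells. It had 2, 8 and 6 counts in WT replicates 1, 2 and 3 and 20, 24 and 19 counts in KO, or 0.0852 to 0.269 CPM against 0.560 to 0.774 CPM. WT replicate 1 was below the floor of 3 counts, and all KO libraries were above all WT libraries. The log2 difference was 1.72 ± 0.36 (edgeR adjusted p = 0.00286), and 1.45 without WT replicate 1. Ncr1 passed the expression filter only through its KO counts, which favours a call in that direction. The ratio of summed counts at equal depth came to 3.33 (95% interval 1.90 to 6.18, for counting error alone). There were 0.145 ± 0.0282 Ncr1 counts for each Klrb1c count in WT and 0.269 ± 0.0316 in KO (SD, n = 3 each). A filter of 1 CPM in 3 libraries leaves Ncr1 out, since no library reaches that level.

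Klrg1, an inhibitory receptor of terminally differentiated effector cells, was barely detected. It had 6, 7 and 1 counts in WT and 21, 8 and 9 in KO, and it did not pass the expression filter. WT replicate 3 was below the floor, and KO replicate 1 stood clearly above the rest. Every KO library was above every WT library, but the gap was narrow, from 0.256 CPM in WT replicate 1 to 0.258 CPM in KO replicate 2. The ratio of summed counts at equal depth was 2.30 (95% interval 1.22 to 4.59, for counting error only). Without the filter, edgeR gave Klrg1 a log2 difference of 1.17 ± 0.49 that did not pass (adjusted p = 0.0573).

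Of the adaptor genes, Fcer1g rose and the other two did not pass. Hcst, encoding DAP10, the adaptor that links NKG2D to phosphoinositide 3-kinase, stood at 11.9, 11.4 and 11.4 CPM in WT and at 11.3, 11.3 and 9.90 CPM in KO. The KO libraries were all lower, but 2 of them only narrowly, and the log2 difference of -0.09 ± 0.08 did not pass (edgeR adjusted p = 0.368; 95% interval of the fold change 0.823 to 1.07). Over all tested genes 32.5% had every KO library above every WT library and 30.8% every KO library below. The sign of the Hcst difference turned with the scaling on Cd3 genes described below, to 0.16. For every Hcst count there were 7.99, 8.85 and 9.09 Klrk1 counts in WT and 10.3, 10.7 and 13.1 in KO. The ratio was higher in all KO libraries, with the smallest exact permutation p the design allows (0.10).

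Tyrobp, encoding the ITAM adaptor DAP12, stood at 2.00, 2.72 and 3.02 CPM in WT and at 2.44, 3.16 and 2.33 CPM in KO. The groups overlapped throughout, and the lowest library was WT replicate 1. Its log2 difference was 0.01 ± 0.18 (edgeR adjusted p = 0.961), and the 95% interval of the fold change was wide, from 0.761 to 1.34. Fcer1g encodes the common gamma chain of Fc receptors, also an ITAM adaptor, which serves NKp46 and the IgE receptor. It stood at 2.60, 3.39 and 3.40 CPM in WT and at 4.12, 4.90 and 3.89 CPM in KO, with no overlap. The log2 difference was 0.44 ± 0.15 (edgeR adjusted p = 0.0273), which no longer passed without KO replicate 1 (0.0534) or without KO replicate 2 (0.112). Without WT replicate 1 it was 0.34 (edgeR adjusted p = 0.0472). There were 1.22 ± 0.0881 Fcer1g counts for each Tyrobp count in WT and 1.64 ± 0.0743 in KO (SD, n = 3 each).

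Markers of other cells that express these genes moved in the same libraries. Of all tested genes 26.7% were called higher and 26.1% lower. The 9 mast cell and basophil markers, whose cells carry the IgE receptor with the Fcer1g chain, summed to 3.81 to 4.802 CPM in WT and 13.9 to 17.5 CPM in KO; 7 of the 8 tested were called higher, and Mcpt4 had 1 count in all. Of these 8, Cma1, Fcer1a, Mcpt8, Ms4a2 and Prss34 passed the expression filter only through their KO counts; the other 3, Gata2, Cpa3 and Hdc, rose. The 5 platelet and megakaryocyte markers summed to 7.58 to 9.67 CPM in WT and 19.9 to 22.9 CPM in KO, and all 3 that were tested, Pf4, Ppbp and Itga2b, rose. The 10 NK cell markers, which include Ncr1 and Klrb1c, summed to 44.9 to 49.1 CPM in WT and 54.2 to 61.2 CPM in KO. Of the 8 tested, 4 were called higher and 1 fell. Ncr1, among the 4, passed the filter through its KO counts alone. Of the other 7, 3 were called higher and 1 lower. Eomes is also expressed by CD8 T cells. Without it the other 9 summed to 27.6 to 29.8 CPM in WT and 23.02 to 25.95 CPM in KO. Klra7, also found on CD8 T cells, held most of that sum and fell from 19.7 to 13.5 CPM. Of the others tested, Klrb1c, Klra3 and Ncr1 were called higher, and Klra9, Klre1 and Itga2 did not pass. Klra4 and Klra8, defining receptors of NK cell subsets, stood at 0.231 and 0.277 CPM in WT and 0.351 and 0.244 CPM in KO. The 8 gamma-delta T cell markers summed to 54.7 to 58.9 CPM in WT and 112 to 130.8 CPM in KO, with 7 called higher, Trdv4 through its KO counts alone, and 1 lower. Klrk1 counts per count of Trdc, the delta chain constant region, were 5.44 ± 0.325 in WT and 2.70 ± 0.139 in KO (SD, n = 3 each), so Trdc rose more than Klrk1. The 5 NKT cell markers summed to 36.5 to 42.4 CPM in WT and 34.0 to 37.5 CPM in KO. Zbtb16, Trbv13-2 and Trbv29 were tested and did not pass. Trav11 and Trav11d, the alpha chain segments of invariant NKT cells, were at 0 counts in all libraries. The treatment of multi-mapping reads is not given, so 0 counts do not show that these cells were absent. The 13 myeloid markers, whose cells use Fcer1g and Tyrobp, summed to 32.9 to 37.4 CPM in WT and 29.6 to 32.2 CPM in KO, with S100a8, S100a9 and Fcgr1 at 0. Of the 5 tested, Mpeg1 (log2 0.40), Spi1 (0.48) and Lyz2 (1.36, which passed the filter through KO alone) were called higher and Cd68 (-0.39) and Itgam (-0.44) lower. The part of these cells in the rise of the receptor and adaptor genes was not tested.

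The receptor genes were also set against T cell genes. Of the 12 T cell markers 8 were called lower and 0 higher, where 26.1% of all tested genes were called lower. Genes called higher therefore had to rise relative to most of these markers. Such ratios cannot tell a change in cell make-up from a change per cell. Cd8a, the CD8 alpha chain, did not pass the test (log2 -0.03 ± 0.04, edgeR adjusted p = 0.576), Cd8b1 fell (log2 -0.17 ± 0.04, adjusted p = 0.00764) and Cd4 fell (log2 -0.36 ± 0.05, adjusted p = 0.000227). Klrk1 counts per Cd8a count were 0.262, 0.267 and 0.285 in WT and 0.332, 0.330 and 0.355 in KO, without overlap. Klrd1 counts per Cd8a count overlapped, at 0.201 ± 0.0166 in WT and 0.208 ± 0.0139 in KO (SD, n = 3 each). With the libraries scaled on Cd8a and Cd8b1, the same count of 5 genes was called higher, where 33.5% of all tested genes were, and 64.5% of all calls were higher. With the libraries scaled on Cd3d, Cd3e, Cd3g and Cd247, genes of the T cell receptor complex, 7 genes were called higher, where 51.5% of all tested genes were, and 84.9% of all calls were higher. That scaling moved the median of all tested genes to 0.26, and the log2 difference of Klrd1 became 0.27 and that of Klrc1 0.42. With it Cd8a became higher (0.22), and Dnm1l (-0.07), Cd4 (-0.11), Tcf7 (-0.16) and Pik3cd (-0.13) no longer passed. Relative to that median, Klrd1 lay at about the middle of all genes under either scaling.

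**Figure D3:**
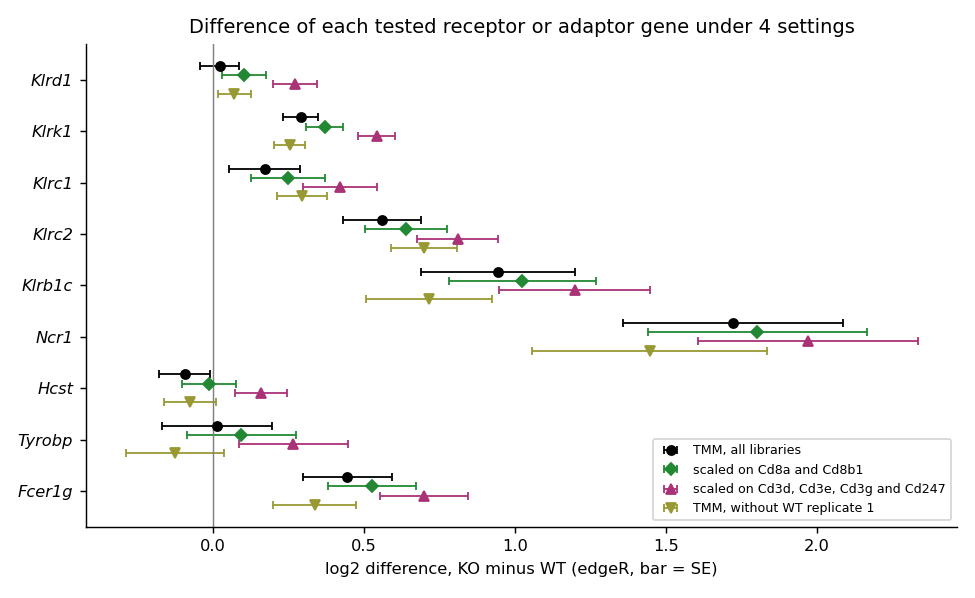
Log2 difference of KO minus WT (x axis, bars are SE) of the 9 tested genes (y axis) under 4 settings, shown by symbol. Klrk1, Klrc2, Klrb1c, Ncr1 and Fcer1g, and also Klrc1 and Klrd1, which did not pass the main test, have points above 0 in all of them. Scaling on the Cd3 genes moves Klrd1 from 0.02 to 0.27.

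Levels can be compared between genes only per length. Per kilobase of merged exon, Klrd1 was the highest in both groups, at 57.7 ± 3.60 CPM in WT and 58.5 ± 3.96 CPM in KO (SD, n = 3 each). Klrc1 came next with 20.6 ± 3.41 CPM per kilobase in WT, then Hcst with 16.02 ± 0.384 and Klrk1 with 13.9 ± 0.617. In KO Klrk1, at 17.0 ± 0.934 CPM per kilobase, stood above Hcst, at 14.99 ± 1.11. Tyrobp and Fcer1g followed, at 3.87 ± 0.781 and 3.58 ± 0.525 in WT, and could not be ordered because their libraries overlapped in both groups. Klrc2 (0.889 ± 0.166 in WT) and Klrb1c (0.406 ± 0.144) came below them, and Klrg1 and Ncr1 shared the bottom with overlapping libraries. The length chosen matters, in proportion most for Klrk1 and Klrc2, which have merged exons of 7183 and 5812 bases. By median transcript length, Klrk1 stood second in WT, at 81.5 ± 3.61 CPM per kilobase, after Klrd1 with 127 ± 7.92 and before Klrc1 with 54.2 ± 8.99.

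The other genes of the killer lectin-like family showed no common direction. Of 22 listed, 21 were in the table and 13 were tested. Of these 2 rose, Klrc3 and Klra3, 1 fell and 10 failed the test (median log2 difference 0.12). Of all tested genes 26.7% were called higher and 26.1% lower. Klra7, a Ly49 receptor for classical MHC class I also found on CD8 T cells, fell from 19.7 ± 1.29 to 13.5 ± 1.56 CPM (SD, n = 3 each; log2 -0.54 ± 0.09, edgeR adjusted p = 0.000840). Klra3, another Ly49 gene, rose from 1.46 ± 0.107 to 2.15 ± 0.170 CPM (log2 0.56 ± 0.15, edgeR adjusted p = 0.0119; 0.0535 by DESeq2), and Klrc3 is described above. The pseudogene Klra13-ps had a log2 difference of -0.21 ± 0.10 that did not pass (edgeR adjusted p = 0.113). Ly49 genes are close paralogs, so their counts may be shared. In gene order along chromosome 6, the tested genes from Klrb1c to Klra5 were all above 0, and 6 of the 7 from Klra6 to Klra1 were below 0. Only 6 of these 18 genes passed the test, and the break was placed after the values were seen. Of the untested genes in the second stretch, Klra4 and Klra14-ps had every KO library above every WT library, and Klra8 overlapped.

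**Figure D4:**
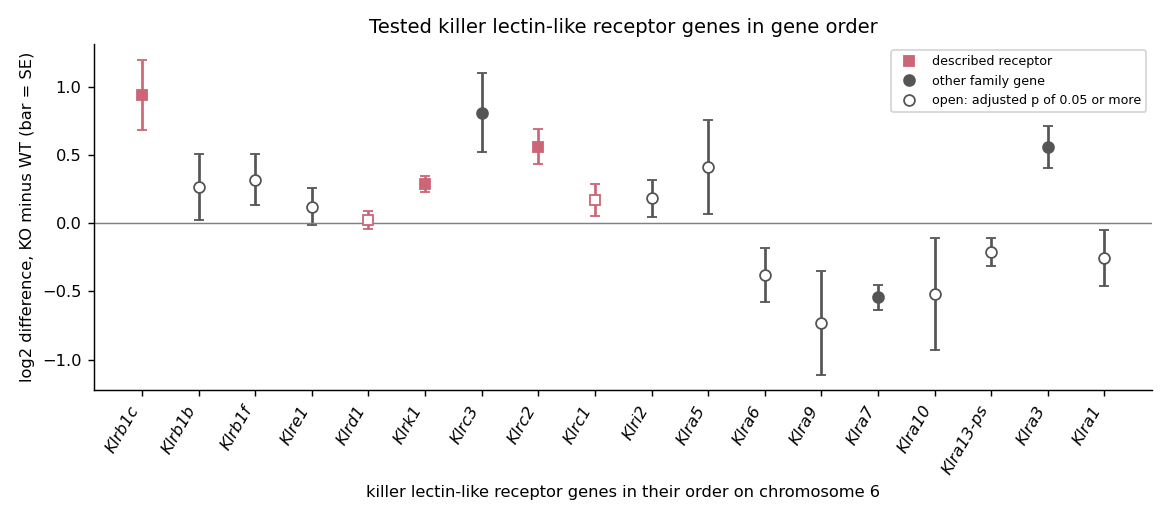
Log2 difference of KO minus WT (y axis, bars are SE) of the 18 tested killer lectin-like receptor genes of chromosome 6, in gene order (x axis). Squares are the receptors described here and circles other family genes, filled where the edgeR adjusted p is under 0.05. Klrc2 stands at 0.56 and Klra7 at -0.54.

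Other receptors shared by NK and cytotoxic T cells moved both ways: 4 rose, 6 fell and 3 failed the test among 13 (median -0.07). Of all tested genes 26.7% were called higher and 26.1% lower. Slamf7, a SLAM family receptor, fell from 256 ± 5.22 to 159 ± 1.69 CPM (SD, n = 3 each; log2 -0.69 ± 0.04), and Cd7, an immunoglobulin family receptor, had the largest fall on the list (log2 -1.84 ± 0.17). Nkg7, a cytotoxic granule protein, rose from 316 ± 7.37 to 383 ± 7.43 CPM (log2 0.28 ± 0.04). The edgeR adjusted p-values of these 3 genes ran from 1.11e-05 to 0.000454.

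Genes for ligands of the described and of other NK type receptors fell or did not pass. Of 19 listed, 14 were in the table and 8 were tested. Of these 6 fell and 2 failed the test (median log2 difference -0.40), where 26.1% of all tested genes were called lower. H2-T23, the gene of Qa-1, fell from 354 ± 12.8 to 280 ± 16.9 CPM (SD, n = 3 each, edgeR adjusted p = 0.000562). Of the NKG2D ligand genes tested, H60b fell (log2 -0.94 ± 0.24, edgeR adjusted p = 0.00761). Ulbp1 did not pass (log2 0.10 ± 0.08, edgeR adjusted p = 0.342). Pvr, the ligand of the receptors DNAM-1 and TIGIT, fell from 71.9 ± 2.51 to 53.6 ± 2.00 CPM (SD, n = 3 each). Clec2i (log2 -0.59 ± 0.08) and Clec2d (log2 -0.37 ± 0.05), lectin-like ligands of the NKR-P1 family to which Klrb1c belongs, fell as well, with edgeR adjusted p-values of 0.000193 and 0.000209. Under the scaling on Cd3 genes 3 ligand genes were called lower and 2 higher, where 51.5% of all tested genes were called higher. Clec2d then had a log2 difference of -0.12 that did not pass.

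Downstream of the adaptors, 22 signalling genes were tested. Of these 3 rose, 9 fell and 10 failed the test (median -0.09), where 26.7% of all tested genes were called higher and 26.1% lower. Zap70, a kinase recruited to ITAMs, fell from 294 ± 22.5 to 205 ± 18.4 CPM (SD, n = 3 each; log2 -0.52 ± 0.07, edgeR adjusted p = 0.000287). Pik3cd, a catalytic subunit of phosphoinositide 3-kinase (log2 -0.38 ± 0.05), and Plcg1, a phospholipase C (log2 -0.46 ± 0.06), fell too, with edgeR adjusted p-values of 0.000141 and 0.000164. With the scaling on Cd3 genes the counts of this list were 12 higher and 2 lower, where 51.5% of all tested genes were called higher. Cd247, which is on this list, is also one of the scaling genes. The direction of the calls therefore depends on the scaling, for this list as for all tested genes.

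Among 18 tested transcription factors of NK and cytotoxic T cells, 3 rose, 8 fell and 7 failed the test (median -0.21). The shares over all tested genes were 26.7% higher and 26.1% lower. Eomes, a T-box factor of NK and memory CD8 T cells, stood at 15.1 to 21.1 CPM in WT and 30.8 to 36.4 CPM in KO (log2 0.82 ± 0.11, edgeR adjusted p = 0.000255). Its groups were far apart, with a fold change of 1.76. Tbx21, the related factor T-bet, stood at 42.4 ± 1.99 and 45.1 ± 0.437 CPM (SD, n = 3 each) and did not pass (log2 0.09 ± 0.05, edgeR adjusted p = 0.202), though it did with the Cd3 scaling (log2 0.34). Runx3 (log2 -0.42 ± 0.06), a Runx factor of CD8 T cells, Bach2 (log2 -0.43 ± 0.06) and Tcf7 (log2 -0.41 ± 0.07), which maintain memory and stem-like T cells, fell, with edgeR adjusted p-values of 0.000212, 0.000277 and 0.000557.

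Receptors for the cytokines that sustain NK and cytotoxic T cells had 6 of 10 genes higher, 2 lower and 2 that failed the test (median 0.20). The shares over all tested genes were 26.7% higher and 26.1% lower. The IL-18 receptor chains Il18rap (log2 0.47 ± 0.09) and Il18r1 (log2 0.31 ± 0.06) and the IL-2 receptor alpha chain Il2ra (log2 0.43 ± 0.09) rose, with edgeR adjusted p-values of 0.00205 to 0.00264. Il2ra varied among WT libraries, at 1119 ± 163 CPM (SD, n = 3), and stood at 1511 ± 75.4 CPM in KO.

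**Figure D5:**
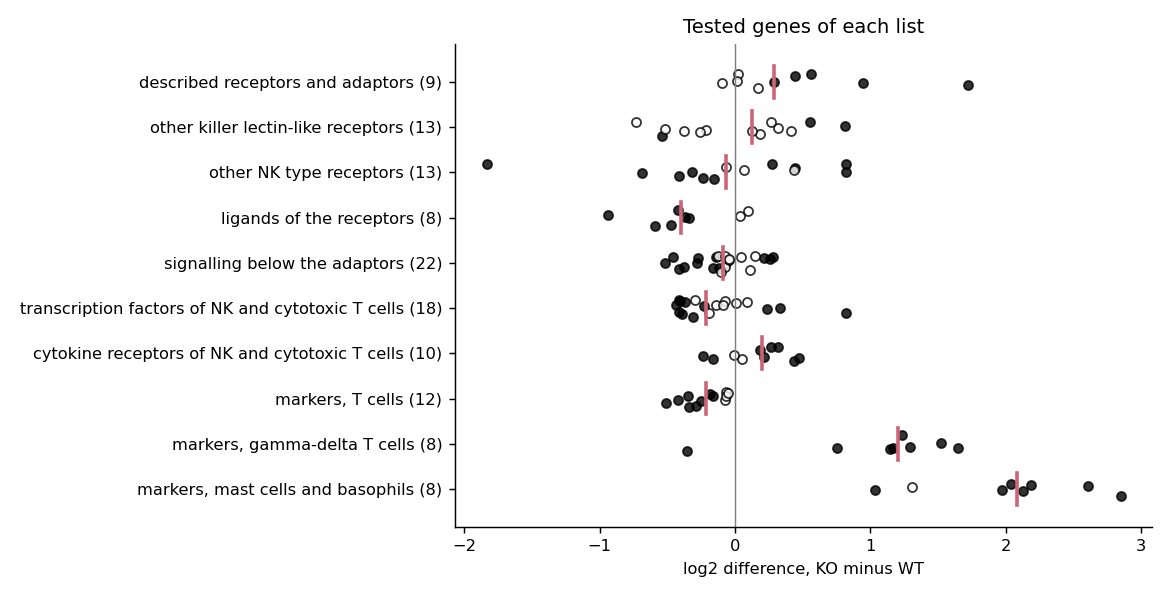
Log2 difference of KO minus WT (x axis) of the tested genes of each list (y axis, number tested in brackets); filled points passed the edgeR test, and the vertical bar is the list's median. The described genes have a median of 0.29, the ligand genes -0.40 and the gamma-delta T cell markers 1.204. Among the described genes Ncr1, and among the gamma-delta markers Trdv4, passed the filter through KO counts alone.

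Genes with the library profile most like those of Klrk1 and Klrd1 were sought among 9589 genes of at least 5 CPM, by the root mean square difference of log2 CPM from the gene's mean over the 6 libraries. Nearest to Klrk1 were Ryk, a Wnt receptor, Kdm1b, a histone demethylase, and Erap1, a peptidase that trims MHC class I ligands, at 0.0162 to 0.0209, where the median gene lay at 0.187. Nearest to Klrd1 were Rab1, a GTPase of the secretory pathway, Ttc14 and Id3, an inhibitor of E proteins, at 0.0174 to 0.0222, where the median gene lay at 0.160. None of these was a receptor or adaptor of the group, of which only Klrk1, Klrd1, Klrc1, Klrc2 and Hcst reached 5 CPM. With so few eligible, their absence says little. With 6 libraries in 2 groups, likeness over them is a description only.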

How the data were processed

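The values are raw counts by gene symbol, deposited as 1 table in which each library has its column. Per the submitters' processing notes, Cufflinks, DESeq2 1.12, HTSeq 0.6.1, STAR 2.5.2 and FastQC were used with mm10, in roles not given there. Per the labels' protocols, libraries came from a stranded poly(A) mRNA kit. Not given in the sources used here: the annotation, strand setting, read length and treatment of multi-mapping reads.

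Counts were analysed with edgeR 4.0.16 in R 4.3.3: filterByExpr (14209 genes kept, with 99.9% of counts), TMM factors, and a quasi-likelihood F test between KO and WT with Benjamini-Hochberg adjustment over all genes and no block, after a test on simulated data. Fold changes are KO over WT, with their standard errors. In 27 rows a spreadsheet had turned the symbol into a date; they held 0.241% of counts and stayed in totals. Positions and lengths are from GENCODE M21 (mm10). The genes and lists were chosen with earlier results of these data known. From each list the 3 genes with the smallest adjusted p at 1 CPM or more were named; Dnm1l, Cd4, Cd8a, Cd8b1, Eomes, Tbx21 and Tcf7 were named whatever their value. Klrc3, H2-T23, H60b, Ulbp1, Xist, Ddx3y and marker genes beyond that rule were named after their values were seen. The 16 ratios, the motifs, the printed windows and the break in gene order were likewise picked after values or sequences had been looked at. No nearest genes were sought for Klrg1, which did not pass the filter. Alternatives were DESeq2 1.42.0, limma-voom (limma 3.58.1), other scalings and filters, the replicate block and each library left out; the joint Klrc count and the median transcript length were added after seeing the data. Figures were drawn with matplotlib 3.10.9.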

Additional observations from a re-analysis of the deposited data

How the results depend on the processing

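The 5 calls among the receptor and adaptor genes were also 5 with DESeq2 size factors, upper quartile factors or library totals in edgeR, with DESeq2, with limma-voom, without a filter and with the scaling on Cd8a and Cd8b1. With 1 CPM in 3 libraries the count was 4, since Ncr1 was not tested; at an adjusted p under 0.01 it was 3. With a library left out it ran from 4 to 6, Fcer1g being lost without KO replicate 1 or 2 and Klrc1 gained without WT replicate 1. No receptor or adaptor gene was called lower under any of these alternatives (0). Over all genes 7513 were called, 5985 to 7534 with a library left out, and 5369 at an adjusted p under 0.01. The scaling on Cd3 genes reversed Cd8a (log2 0.22) and Cd8b1 (0.080), by its construction raising most genes. With it 51.5% of all tested genes were called higher. With the replicate block, 5 receptor and adaptor genes and 7900 genes in all were called. Same-numbered libraries deviated together with r = 0.16, 0.11 and 0.01, and differently numbered ones with r = -0.158 to 0.0958. Whether the numbers pair the libraries cannot be told from 3 libraries a group. The scaling on Cd3 genes also changed counts of higher and lower calls to 5 and 1 for other killer lectin-like receptors, 7 and 2 for other NK type receptors, 2 and 3 for ligands, 12 and 2 for signalling genes, 6 and 2 for transcription factors and 8 and 0 for cytokine receptors. For the other killer lectin-like receptors 2 were called higher; DESeq2 called 0 and 1 CPM in 3 libraries left 1, as did each library left out except WT replicate 2. Low counts limit Ncr1 and Klrg1.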
